A study of Mus musculus with 62 samples.

Results

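Fatty acid uptake and oxidation in mouse quadriceps was followed through 38 genes that take a fatty acid from the capillary wall to the respiratory chain. The genes were listed by name for their place in the pathway, with no measured value in the rule, although earlier results of these data were known when the list was drawn up. All 38 were found among the 55487 genes of the deposited count table. The libraries came from 62 male mice in which 3 factors were crossed: running on a wheel by choice, supply of nicotinamide riboside (NR, a precursor of NAD) and supply of pterostilbene (PT, a stilbenoid from plants). Poly-A RNA of the quadriceps was sequenced from each animal. The 4 running groups were mice given NR and PT (n = 8), NR only (n = 7), PT only (n = 8) and neither (n = 7), and the 4 non-running groups received the same supplements (n = 8 each). Strain, age, dose and running distance are not stated in the labels, which record each supplement only as present or absent, and the series title names an intravenous route for NR. Each mouse has a labelled day of termination (8 days, in 2 cohorts) and a time of termination (morning or noon). Within a day, all running mice were terminated at one of these times and all non-running mice at the other.

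As background, triglyceride carried in lipoproteins is split at the capillary wall, and the freed fatty acids enter the muscle fibre through membrane carriers and are held by a binding protein. They are activated to acyl-CoA, passed into the mitochondrion by the carnitine shuttle, which malonyl-CoA restrains, and shortened in repeated turns of beta-oxidation. Electrons from the first step of each turn reach the respiratory chain through electron transfer flavoprotein. Nuclear receptors of the PPAR and ERR families, with the coactivator encoded by Ppargc1a, are known activators of many of these genes in muscle, and endurance training is known to raise the oxidative capacity of muscle.

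Libraries held 5642043 to 30804390 counts (median 16148218), and the 38 genes took 0.362 to 0.699% of the counts of a library. All 38 passed the filter on low counts. Markers of the labelled tissue were abundant: 12 skeletal muscle markers summed to a median of 171712 CPM (counts scaled to library size) in running mice and 177759 CPM in non-running mice. The labels call the libraries separate animals, and no 2 libraries of a group agreed within sampling noise.

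Sequence upstream of 5 of the genes is shown for the letters that the receptors of this pathway are known to read, chosen for how these genes behaved. Acads and Hadh had the smallest adjusted p-values for running, Acadvl was a called gene of the same pathway step, Acsl6 was the one gene called lower in running mice, and Ucp3 varied widely between mice. Each run is the 250 bases before the RefSeq start of the gene, written 5′ to 3′ along the gene. Capitals mark AGGTCA, the half-site of nuclear receptors, and the longer TCAAGGTCA, each on either strand. RefSeq gives 3 starts for Acsl6, and the window shown is that of the most upstream one; those of the other 2 starts hold no AGGTCA. The coordinates are those of GRCm38.p6: Acads chr5:115119347-115119596 on the minus strand, Hadh chr3:131272102-131272351 on the minus strand, Acadvl chr11:70015429-70015678 on the minus strand, Acsl6 chr11:54303574-54303823 on the plus strand, and Ucp3 chr7:100472741-100472990 on the plus strand.
Acads: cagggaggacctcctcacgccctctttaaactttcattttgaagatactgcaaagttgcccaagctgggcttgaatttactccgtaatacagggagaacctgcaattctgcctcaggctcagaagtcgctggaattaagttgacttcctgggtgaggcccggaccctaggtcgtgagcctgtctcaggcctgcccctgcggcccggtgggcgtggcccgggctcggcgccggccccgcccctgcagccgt
Hadh: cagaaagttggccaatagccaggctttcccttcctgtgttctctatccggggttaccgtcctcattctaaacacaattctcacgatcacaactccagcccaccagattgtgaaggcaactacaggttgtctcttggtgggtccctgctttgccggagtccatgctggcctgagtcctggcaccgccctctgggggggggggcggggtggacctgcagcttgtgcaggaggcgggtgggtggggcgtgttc
Acadvl: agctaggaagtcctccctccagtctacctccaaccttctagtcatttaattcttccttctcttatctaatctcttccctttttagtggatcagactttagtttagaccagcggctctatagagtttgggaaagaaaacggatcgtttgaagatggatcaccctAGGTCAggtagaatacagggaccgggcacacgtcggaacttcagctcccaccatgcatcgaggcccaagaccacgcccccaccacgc
Acsl6: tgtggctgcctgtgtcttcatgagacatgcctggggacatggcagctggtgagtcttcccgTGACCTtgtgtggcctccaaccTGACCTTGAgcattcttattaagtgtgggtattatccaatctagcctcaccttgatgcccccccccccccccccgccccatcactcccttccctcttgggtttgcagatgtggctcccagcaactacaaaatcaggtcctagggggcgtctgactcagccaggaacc
Ucp3: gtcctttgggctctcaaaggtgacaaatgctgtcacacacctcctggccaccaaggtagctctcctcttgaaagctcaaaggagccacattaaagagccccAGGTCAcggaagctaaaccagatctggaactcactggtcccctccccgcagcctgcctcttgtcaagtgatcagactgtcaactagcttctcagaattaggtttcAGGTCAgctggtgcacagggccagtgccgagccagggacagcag
The Acadvl half-site begins 87 bases before the start (-87). The Ucp3 half-sites begin at -149 and -44, and those of Acsl6 at -189 and -167 on the opposite strand. The second Acsl6 site lies in TGACCTTGA, which reads TCAAGGTCA on the opposite strand, the element known to be bound by ERR receptors. Acads and Hadh hold no AGGTCA in these windows. RefSeq promoter entries were matched for 31 of the 38 genes, and with both strands and 50 bases past the start included, AGGTCA was present in 10 of the 31 (32.3%), against 4900 of the 27025 genes of the table (18.1%). TCAAGGTCA was present in 1 of the 31, Acsl6, and in 0.466% of all genes. The direct repeat of AGGTCA with 1 base between the copies, the kind of element read by PPAR receptors, was present in 0 of the 31 and in 13 genes of the table. AGGTCA is part of both longer motifs, and a match is a match of letters only.

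Levels between genes were compared per length, as RPKM (reads scaled to exon length and library size), with the exon length given in the deposited table. Fabp3, the fatty acid binding protein of the muscle cytosol, had the highest median over the 62 mice, 197 RPKM, with a range of 88.1 to 377 RPKM. Acadl, the long-chain acyl-CoA dehydrogenase, followed at a median of 137 RPKM, then Acaa2, the thiolase that ends a turn of beta-oxidation, at 99.3 RPKM and Etfa, a subunit of electron transfer flavoprotein, at 94.8 RPKM. Of the 3 regulators, 2 lay at the bottom. The median of Ppara, a nuclear receptor of fatty acid metabolism, was 1.24 RPKM, and that of Angptl4, a secreted inhibitor of lipoprotein lipase, was 1.21 RPKM, while the receptor gene Ppard stood at 3.49 RPKM. Of the carnitine palmitoyltransferases, Cpt2 had a median of 32.0 RPKM, Cpt1b 3.42 RPKM and Cpt1a 1.87 RPKM. The exon length behind a value covers all annotated exons of a gene, which for Echs1 sums to 8286 bases and for Hadha to 8730 bases, so a level between genes depends on which exons the muscle uses.

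**Figure D1:**
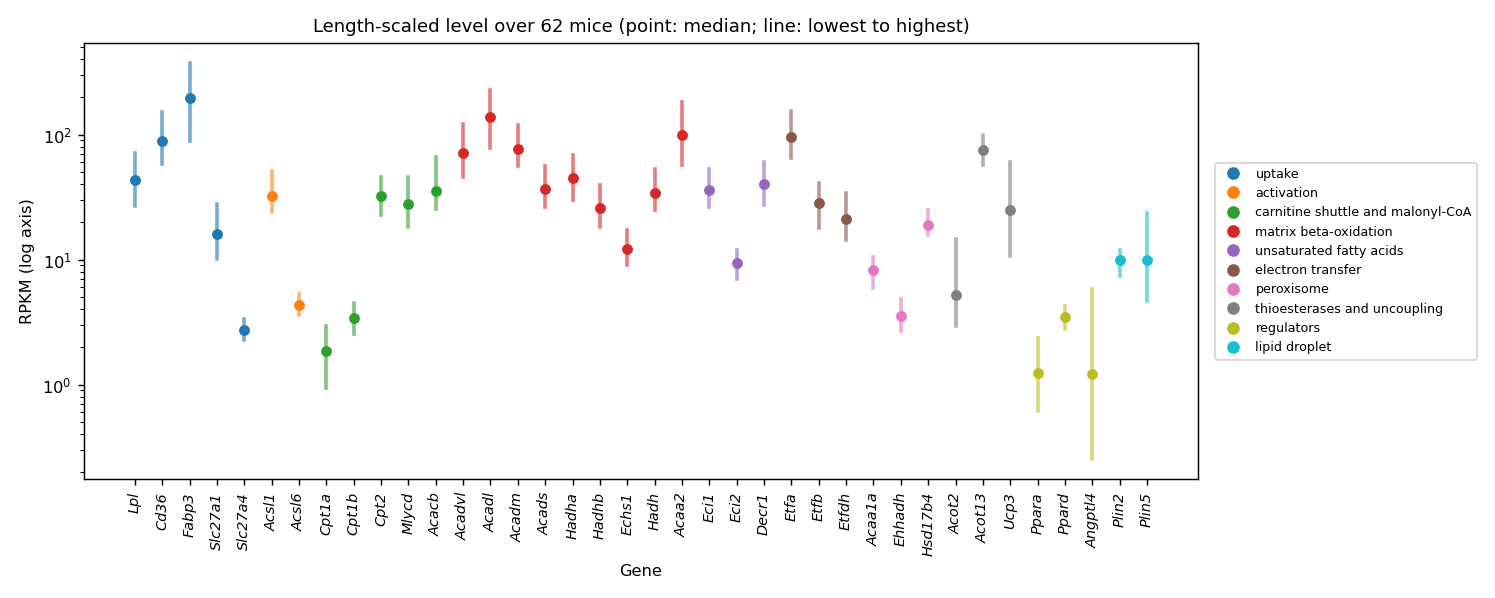
RPKM of each of the 38 genes (log axis), ordered by pathway step and coloured by it. The point is the median and the line spans the lowest to the highest of the 62 mice. Fabp3 is the highest at a median of 197 RPKM, and Ppara and Angptl4 are the lowest at 1.24 and 1.21 RPKM.

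Spread between mice differed by gene. Acsl6 had the smallest coefficient of variation, 6.05% in running mice and 7.49% in non-running mice. Angptl4 had the largest, 84.5% in running mice and 53.6% in non-running mice, and Acot2, Ucp3, Plin5, Ppara, Fabp3 and Lpl were also above 20% in both states. For 34 of the 38 genes the fitted mean was higher in running than in non-running mice, and between groups the means differed little: the highest group mean of a gene was 1.07 (Eci2) to 2.02 (Angptl4) times its lowest. In 36 genes the highest group mean belonged to a running group, and in 20 of these to running mice given NR and PT, a ranking of means that no test compared.

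Wheel running went with a small rise of many of these genes. In edgeR's quasi-likelihood test with Benjamini-Hochberg adjustment over 14549 genes, 12 of the 38 rose and 1 fell at an adjusted p below 0.05, which is 34.2% of them, against 14% of all tested genes in either direction (8.41% higher and 5.58% lower). Their median log2 change was 0.12, against 0.01 over all tested genes. Fitted changes were above 0 for 34 of the 38 genes, against 55.1% of all genes. The genes that rose were Lpl, Acsl1, Cpt2, Acadvl, Acads, Echs1, Hadh, Acaa2, Etfa, Etfdh, Ehhadh and Acot13, and the one that fell was Acsl6. By step, 5 of 9 genes of matrix beta-oxidation rose, 2 of 3 of electron transfer, 1 of 5 of uptake, 1 of 2 of activation, 1 of 5 of the carnitine shuttle and its malonyl-CoA control, 1 of 3 of the peroxisome and 1 of 3 of the thioesterases and uncoupling protein. None of the 3 genes for unsaturated fatty acids, the 3 regulators and the 2 lipid droplet genes passed the test. At an unadjusted p below 0.05 were 20 of all 38 genes, against 4150 of the 14549 tested genes. DESeq2 called 13 of the 38, the same 12 higher and 1 lower.

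The count of calls depended on which mice and which genes entered the fit, while the direction of the 13 called genes was the same in each of the 20 alternative fits. With all mice kept but no filter on low counts, 4 genes were called (Lpl, Acads, Hadh and Acot13). Without the mice of day 1, 2 genes were called (Acads and Hadh), without day 4, 5 genes, and without day 5, 6 genes. Without a single library, replicate 2 of the running mice given NR only, 8 genes were called. Cohort 1 alone gave 1 call, Acads, and cohort 2 alone gave 0 (63 genes were called in all in that cohort by edgeR). Apart from cohort 2, calls over all genes in these fits are not given here. A loss in the 38 genes is therefore not set against one over all genes. These p-values take each mouse as a unit. With the counts summed over the mice of 1 day and running state (16 sums), 14 of the 38 genes were called higher and 0 lower, against 7.52% of all tested genes called in either direction. Of the 13 genes called over single mice, 11 were called there too, and Acsl6 and Ehhadh were not.

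**Figure D2:**
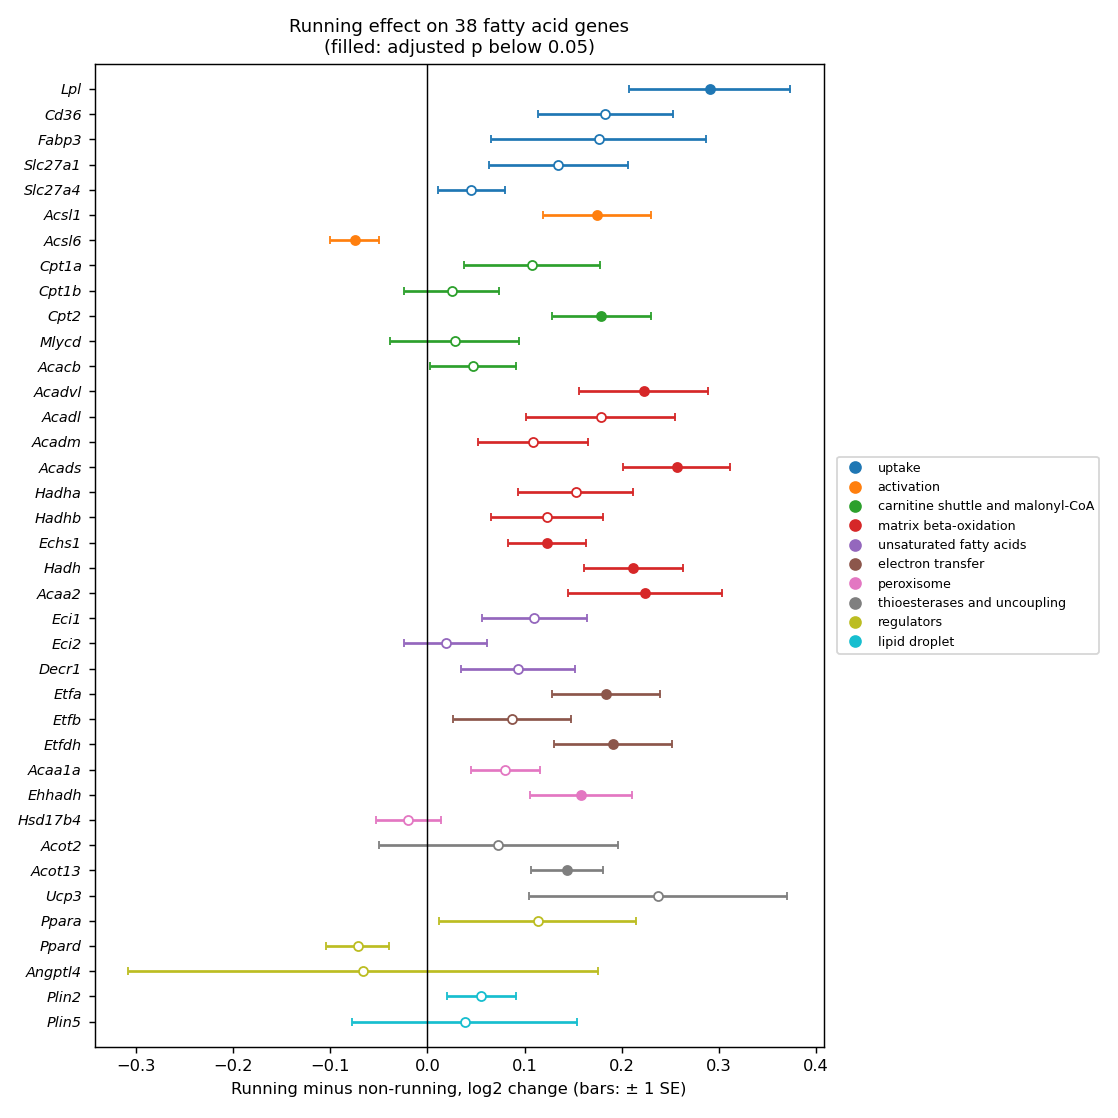
Log2 change of each gene in running against non-running mice, averaged over the 4 supplement arms, with bars of 1 standard error (62 mice). Filled points have an adjusted p below 0.05, and colours mark the pathway step. The 12 filled points to the right of 0 lie between 0.12 (Echs1) and 0.29 (Lpl), and the filled point to the left is Acsl6 at -0.08.

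At the step of uptake, Lpl, which encodes the lipoprotein lipase that frees fatty acids from triglyceride (ENSMUSG00000015568, chr8:68880491-68907448 in mm10, plus strand), spanned 343 to 750 CPM in running mice with a median of 511 CPM. In non-running mice it spanned 280.0 to 646 CPM with a median of 427 CPM. The ranges overlapped, with 10 of 30 running mice above the highest non-running mouse and 5 of 32 non-running mice below the lowest running mouse. The log2 change was 0.29 ± 0.08 (SE; edgeR adjusted p = 0.0144), the largest of the 38 genes, and the running mean was higher on 8 of 8 days. Cd36, the main fatty acid transporter of the muscle membrane, spanned 209 to 542 CPM in running mice and 223 to 405 CPM in non-running mice, with overlapping ranges and a log2 change of 0.18 ± 0.07 that missed the threshold (edgeR adjusted p = 0.0682). Fabp3 (0.18 ± 0.11, adjusted p = 0.302) and the transport proteins Slc27a1 (0.13 ± 0.07) and Slc27a4 (0.05 ± 0.03) were likewise not called by edgeR.

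Activation showed opposite directions in its 2 genes. Acsl1, the main long-chain acyl-CoA synthetase of muscle (ENSMUSG00000018796, chr8:46471037-46534684, plus strand), spanned 282 to 538 CPM in running mice, median 353 CPM, and 250.1 to 415 CPM in non-running mice, median 331 CPM. Ranges overlapped, with 8 of 30 running mice above every non-running mouse, and the log2 change was 0.17 ± 0.06 (SE; edgeR adjusted p = 0.0271). Acsl6, a long-chain acyl-CoA synthetase best known from brain (ENSMUSG00000020333, chr11:54303798-54361528, plus strand), spanned 36.0 to 45.6 CPM in running mice, median 41.3 CPM, and 37.1 to 52.6 CPM in non-running mice, median 43.1 CPM. No running mouse exceeded the highest non-running mouse, the ranges overlapped almost wholly, and the running mean was higher on 0 of 8 days. It changed by -0.08 ± 0.02 on the log2 scale (SE; edgeR adjusted p = 0.0337), and the call was lost with summed counts and in 8 of the 20 alternative fits in all. Gm12224, annotated on the opposite strand over 13062 bases of Acsl6, had 85.4% as many counts as Acsl6 and a log2 change of -0.07 ± 0.03 (edgeR adjusted p = 0.130), so how reads were shared between the 2 genes is uncertain.

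In the carnitine shuttle, Cpt2, the transferase of the inner mitochondrial membrane (ENSMUSG00000028607, chr4:107903981-107923610, minus strand), spanned 60.3 to 110.2 CPM in running mice, median 80.1 CPM, against 54.0 to 88.1 CPM in non-running mice, median 72.0 CPM. Running mice above the highest non-running mouse numbered 10 of 30, and the ranges overlapped. The log2 change was 0.18 ± 0.05 (SE; edgeR adjusted p = 0.0141). The transferases of the outer membrane, where malonyl-CoA acts, were not called: Cpt1b had a log2 value of 0.02 ± 0.05 (edgeR adjusted p = 0.790) and Cpt1a of 0.11 ± 0.07 (adjusted p = 0.319). Neither were the genes that set malonyl-CoA, Acacb, the carboxylase that makes it, at 0.05 ± 0.04, and Mlycd, the decarboxylase that removes it, at 0.03 ± 0.07.

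Matrix beta-oxidation held the most called genes. Acads, the short-chain acyl-CoA dehydrogenase (ENSMUSG00000029545, chr5:115110299-115119287, minus strand), spanned 65.4 to 127 CPM in running mice, median 92.5 CPM, and 59.3 to 97.7 CPM in non-running mice, median 77.3 CPM. Ranges overlapped, 10 of 30 running mice lay above every non-running mouse, and 26 of 30 lay above the non-running median. The log2 change was 0.26 ± 0.05 (SE; edgeR adjusted p = 0.00106, the smallest of the 38 genes). Hadh, the dehydrogenase of short and medium 3-hydroxyacyl-CoA (ENSMUSG00000027984, chr3:131233419-131272101, minus strand), spanned 143 to 266 CPM in running mice, median 181 CPM, and 124 to 205 CPM in non-running mice, median 162 CPM. Its ranges overlapped too, with 8 of 30 running mice above all non-running mice, and it changed by 0.21 ± 0.05 on the log2 scale (SE; edgeR adjusted p = 0.00323).

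Acadvl, the very-long-chain dehydrogenase of the inner membrane (ENSMUSG00000018574, chr11:70010183-70015408, minus strand), spanned 153 to 324 CPM in running mice, median 203 CPM, and 123 to 239.9 CPM in non-running mice, median 187 CPM. The ranges overlapped, with 9 of 30 running mice above all non-running mice, and the log2 change was 0.22 ± 0.07 (SE; edgeR adjusted p = 0.0189). Acaa2 spanned 110.4 to 274 CPM in running mice, median 154 CPM, and 85.9 to 194 CPM in non-running mice, median 148 CPM, with a log2 change of 0.22 ± 0.08 (SE; edgeR adjusted p = 0.0491), just inside the threshold. Echs1, the enoyl-CoA hydratase of the matrix (ENSMUSG00000025465, chr7:140105710-140116476, minus strand), spanned 85.5 to 144 CPM in running mice, median 107 CPM, and 75.2 to 118 CPM in non-running mice, median 96.0 CPM. The ranges of Acaa2 and Echs1 overlapped between the states, and Echs1 changed by 0.12 ± 0.04 (SE; edgeR adjusted p = 0.0302). The running mean of Echs1 was higher on 6 of 8 days. The other 4 genes of the step were fitted above 0 without a call. These were the long-chain dehydrogenase Acadl (0.18 ± 0.08, edgeR adjusted p = 0.111), the medium-chain dehydrogenase Acadm (0.11 ± 0.06) and the subunits of the trifunctional protein, Hadha (0.15 ± 0.06, adjusted p = 0.0744) and Hadhb (0.12 ± 0.06, adjusted p = 0.145).

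**Figure D3:**
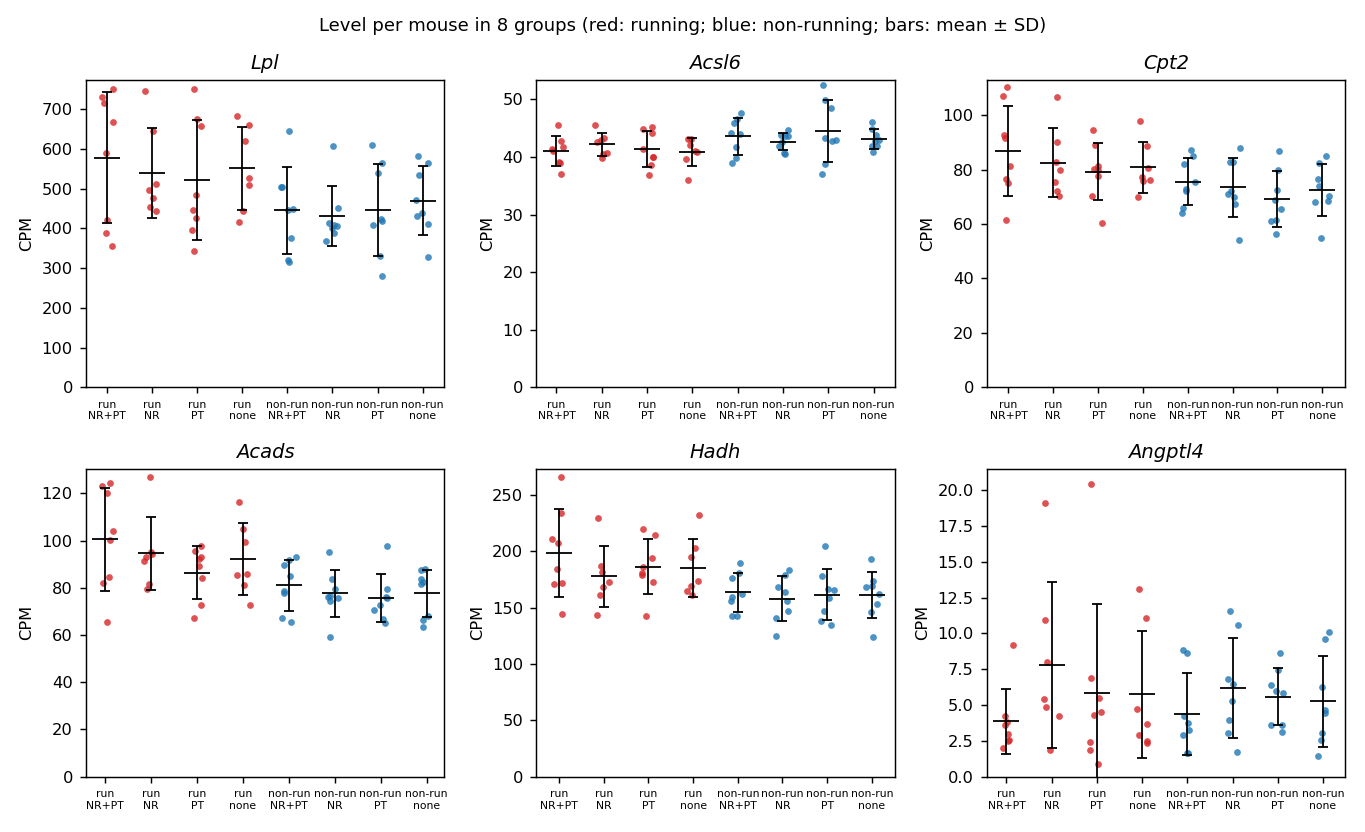
CPM per mouse of 6 genes in the 8 groups, running in red and non-running in blue, with the mean and SD of each group as black bars (n = 7 or 8; axes start at 0, which cuts the lower bar of Angptl4 in running mice given PT). Running and non-running mice overlap in every panel. Acads and Hadh sit higher in running mice, Acsl6 slightly lower, and Angptl4 is spread widely in both.

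Electron transfer rose in 2 of its 3 genes. Etfa (ENSMUSG00000032314, chr9:55454508-55512243, minus strand) spanned 139 to 282 CPM in running mice, median 180.1 CPM, and 120.0 to 208 CPM in non-running mice, median 165 CPM, a log2 change of 0.18 ± 0.06 (SE; edgeR adjusted p = 0.0213). Etfdh, the oxidoreductase that hands the electrons on to ubiquinone (ENSMUSG00000027809, chr3:79603788-79628863, minus strand), spanned 122 to 256 CPM in running mice, median 165 CPM, and 108 to 198 CPM in non-running mice, median 148 CPM, a log2 change of 0.19 ± 0.06 (SE; edgeR adjusted p = 0.0278). Both overlapped between states, and both running means were higher on 8 of 8 days. Etfb, the other subunit, was fitted at 0.09 ± 0.06 and was not called. None of the genes for unsaturated fatty acids was called either. The isomerase Eci1 spanned 56.2 to 112 CPM in running mice, median 79.6 CPM, and 56.8 to 99.3 CPM in non-running mice, median 74.7 CPM, with overlapping ranges, 4 of 30 running mice above every non-running mouse, and a log2 value of 0.11 ± 0.05 (SE; edgeR adjusted p = 0.168). The isomerase Eci2 was fitted at 0.02 ± 0.04 and the reductase Decr1 at 0.09 ± 0.06.

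Of the peroxisomal genes, Ehhadh, the bifunctional enzyme of the peroxisome (ENSMUSG00000022853, chr16:21761287-21787807, minus strand), was a low gene that spanned 9.05 to 14.4 CPM in running mice, median 11.2 CPM, and 7.94 to 13.4 CPM in non-running mice, median 9.85 CPM. Its ranges overlapped, the log2 change was 0.16 ± 0.05 (SE; edgeR adjusted p = 0.0331), and in pairs of a running and a non-running mouse of the same day and supplements the running mouse was the higher in 23 of 30. The call was lost with summed counts and in 11 of the 20 alternative fits in all. Acaa1a, the peroxisomal thiolase, at 0.08 ± 0.04 (edgeR adjusted p = 0.123), and Hsd17b4, the other bifunctional enzyme, at -0.02 ± 0.03, were not called. Acaa1a shares reads uncertainly with the overlapping Myd88, whose counts were 14.1% of its own.

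Acot13, a thioesterase that releases fatty acids from long-chain acyl-CoA (ENSMUSG00000006717, chr13:24817948-24831540, minus strand), spanned 42.4 to 73.7 CPM in running mice, median 60.6 CPM, and 45.0 to 64.7 CPM in non-running mice, median 54.6 CPM. Ranges overlapped, with 7 of 30 running mice above all non-running mice, and 23 of 30 matched pairs had the running mouse higher. The log2 change was 0.14 ± 0.04 (SE; edgeR adjusted p = 0.00582). The mitochondrial thioesterase Acot2, a near-identical relative of Acot1 (0.07 ± 0.12), and the uncoupling protein Ucp3 (0.24 ± 0.13, edgeR adjusted p = 0.238) were not called. Regulators were not called: Ppard, the PPAR receptor most abundant in muscle, spanned 20.9 to 32.1 CPM in running mice, median 25.5 CPM, and 21.6 to 32.0 CPM in non-running mice, median 27.4 CPM. Its ranges were nearly the same and it was fitted at -0.07 ± 0.03 on the log2 scale (SE; edgeR adjusted p = 0.131). Ppara was fitted at 0.11 ± 0.10 and Angptl4 at -0.07 ± 0.24. On the lipid droplet, the coat protein Plin2 spanned 25.8 to 42.2 CPM in running mice, median 35.3 CPM, and 25.8 to 40.2 CPM in non-running mice, median 33.6 CPM, again overlapping, with a log2 change of 0.06 ± 0.04 (SE; edgeR adjusted p = 0.306). Plin5, the perilipin of oxidative muscle, was fitted at 0.04 ± 0.12.

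Days differed in how far the 38 genes moved. The log2 ratio of the running to the non-running mean of a day had a median over the 38 genes of 0.30 on day 1, the largest, and 0.0016 on day 2, the smallest, with 34 and 19 of the genes above 0 on those days. Day 4 had a median of 0.18 and days 5, 6 and 7 medians of 0.13 to 0.14, while days 3 and 8 had 0.06. For Acads the daily log2 ratio lay between 0.08 and 0.54, above 0 on each of the 8 days.

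The 4 supplement arms, which share no animals, gave like sizes of the running change. The median over the 38 genes was 0.13 in mice given both supplements, 0.13 with NR only, 0.12 with PT only and 0.12 with neither, and 24 of the genes were above 0 in all 4 arms. Within single arms 0 of the 38 genes were called by edgeR and 0 by DESeq2, with 7, 3, 5 and 1 of them at an unadjusted p below 0.05 in that order of arms. Over all 14549 tested genes the counts at that p were 2420, 1586, 1342 and 990. The background of calls was 247 of all genes (1.7%) with both supplements, 65 (0.447%) with NR only, 1 (0.00687%) with PT only and 0 (0%) with neither. Acads, for example, was fitted at 0.29 ± 0.11 with both, 0.28 ± 0.11 with NR only, 0.20 ± 0.11 with PT only and 0.25 ± 0.11 with neither. Tests of the differences between arms called 0 of the 38 genes by edgeR and by DESeq2 for running by NR (1 gene at an unadjusted p below 0.05), for running by PT (0 genes) and for the 3-way term (0 genes). For each of these terms edgeR called 0 of all 14549 tested genes, with 525, 511 and 403 at an unadjusted p below 0.05. The interaction SE had a median of 0.11 for running by NR and for running by PT, about as large as the median running change, so differences between arms of that size were not detectable.

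NR called 0 of the 38 genes by edgeR and 0 by DESeq2, where edgeR called 0.0206% of all genes. At an unadjusted p below 0.05 were 828 of the 14549 tested genes and 3 of the 38. Log2 values lay between -0.12 (Ppara) and 0.10 (Slc27a4), with a median of 0.02 and a median SE of 0.06. The 3 genes were Slc27a4, a fatty acid transport protein, Echs1 and Ppard, named here after their values were seen. Slc27a4 spanned 10.5 to 14.9 CPM in mice given NR, median 12.4 CPM, and 10.1 to 14.4 CPM in mice without it, median 11.4 CPM. The ranges overlapped and the log2 value was 0.10 ± 0.03 (SE; edgeR adjusted p = 0.580). Its NR value was 0.23 ± 0.07 in running mice with PT and 0.19 ± 0.07 in running mice without PT, against 0.04 ± 0.07 in non-running mice with PT and -0.05 ± 0.07 in non-running mice without PT. The test of that difference gave a log2 value of 0.22 ± 0.07, the one running-by-NR term with an unadjusted p below 0.05, which did not hold after adjustment (edgeR adjusted p = 1.00).

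PT called 0 of the 38 genes by edgeR, 0 of them at an unadjusted p below 0.05, and 0 by DESeq2, against 0% of all genes. At that unadjusted p were 580 of the 14549 tested genes. The 38 log2 values lay between -0.35 ± 0.24 (Angptl4) and 0.05 ± 0.05 (Hadh), with a median of -0.02. The NR-by-PT term called 0 by edgeR and by DESeq2, and edgeR called 0 of all 14549 tested genes. At an unadjusted p below 0.05 were 327 of all tested genes and, of the 38, Ppard alone. Ppard averaged 27.6 ± 2.27 CPM in running mice given both supplements (SD, n = 8), 25.3 ± 2.00 CPM with NR only (n = 7), 24.1 ± 1.58 CPM with PT only (n = 8) and 26.5 ± 3.28 CPM with neither (n = 7). In non-running mice the averages were 27.8 ± 2.91 CPM with both, 28.0 ± 2.15 CPM with NR only, 25.0 ± 1.80 CPM with PT only and 27.7 ± 2.47 CPM with neither (SD, n = 8 each). The lowest average was that of PT only in each state, and the NR-by-PT term was 0.20 ± 0.07 (edgeR adjusted p = 1.00). In the 8 comparisons of NR or PT within 1 combination of the other factors, edgeR and DESeq2 called 0 of the 38 genes, with 0 to 2 of them at an unadjusted p below 0.05 in each. Among all genes edgeR called 1 there, for PT in non-running mice given NR (0.00687%), and 327 to 763 were at an unadjusted p below 0.05 in each. Acot2 had one of the larger values, -0.61 ± 0.26 for PT in running mice given NR (edgeR adjusted p = 0.897), where it averaged 10.5 ± 2.65 CPM with PT (SD, n = 8) and 16.3 ± 8.66 CPM without (SD, n = 7).

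Time of day was tested over summed counts, 4 noon and 4 morning sessions in each running state, and called 0 of the 38 genes in running mice, with 2 at an unadjusted p below 0.05, and 0 in non-running mice, with 0 at that p. DESeq2 called 0 in both, and edgeR called 0% of all genes in both. Of the 17242 genes tested there, 701 in running mice and 835 in non-running mice had an unadjusted p below 0.05. With the day as a block, noon against morning cannot be told apart from a difference of the running change between days. Angptl4 had the largest noon-minus-morning value in running mice, 1.02 ± 0.44 (SE; edgeR adjusted p = 0.983). It spanned 1.89 to 20.4 CPM at noon in running mice, median 4.84 CPM, and 0.892 to 19.1 CPM in the morning, median 2.53 CPM. In non-running mice it spanned 1.45 to 11.5 CPM at noon, median 4.54 CPM, and 1.64 to 10.6 CPM in the morning, median 4.87 CPM. All 4 sets overlapped. Cpt1a had the smallest p of the 38 genes for a difference between the states: noon minus morning was 0.17 ± 0.08 in running mice and -0.15 ± 0.08 in non-running mice, a difference of 0.32 ± 0.11 (edgeR adjusted p = 0.803). Body weight change, given in the labels without a unit, had a median of 0.7 at noon and -1.8 in the morning in running mice, and 2.3 at noon and 2.85 in the morning in non-running mice.

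**Figure D4:**
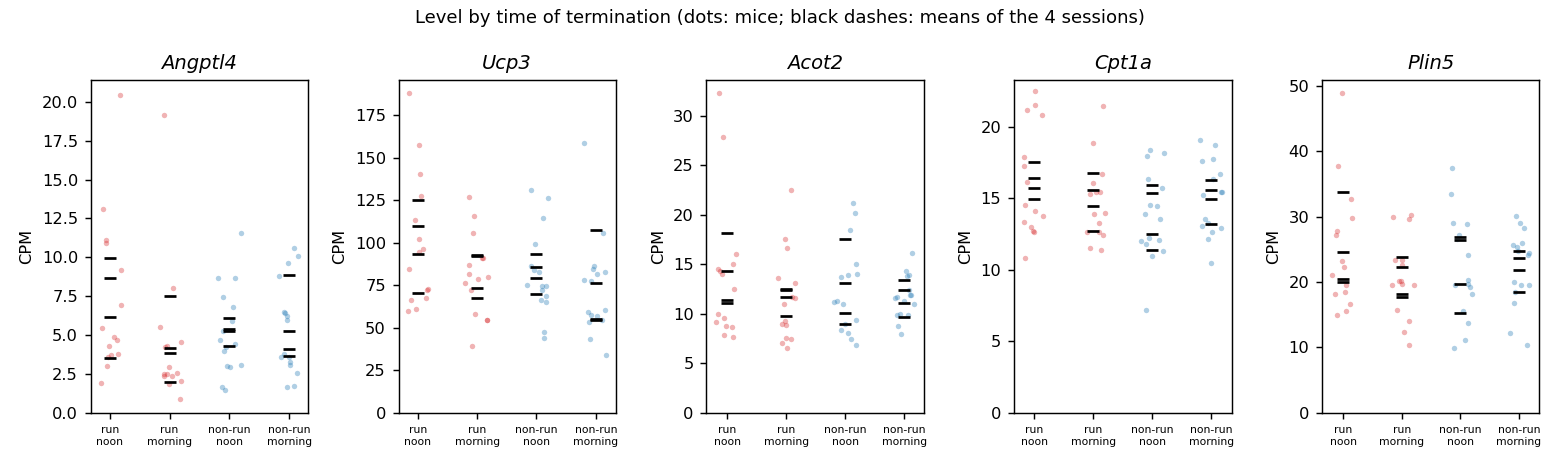
CPM of 5 genes by running state and time of termination, chosen after their values were seen. Dots are mice (15 or 16 a set) and black dashes are the means of the 4 sessions of a set. Noon and morning sessions overlap in every panel, and Angptl4 reaches 20.4 CPM in running mice at noon and 19.1 CPM in running mice in the morning.

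Between mice of the same group, most of the pathway varied as a unit. After group, day and time were removed from log2 CPM, 26 of the 38 genes correlated above 0.5 with at least 19 of the other genes. That set, chosen on these values and so given without a test, had a median Pearson r of 0.76 over its 325 pairs, 94.8% of them above 0.5. The rule that chose the set favours a high share, so that share is not compared with other genes. Over all pairs of the 38 genes, which were listed by name, the median r was 0.477 and 48.5% were above 0.5. Of all pairs of tested genes 1.25% were above 0.5, and their median r was -0.002. The set runs from uptake to the respiratory chain: Lpl, Cd36, Fabp3 and Slc27a1, then Acsl1, Cpt2 and Mlycd, all 9 genes of matrix beta-oxidation, all 3 for unsaturated fatty acids, all 3 of electron transfer, and Hsd17b4, Acot2, Acot13 and Plin5. The 3 tightest pairs were Hadh with Etfa (r = 0.967), Hadha with Etfdh (0.965) and Fabp3 with Acaa2 (0.963), and Hadha with Hadhb had 0.949, all over 62 mice, where the depth and RNA makeup of a library act on both genes of a pair. Hadha and Hadhb, which encode the subunits of one enzyme, lie head to head on chromosome 5, with 272 bases between their RefSeq starts.

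The 12 genes outside the set had a median r of 0.08 among themselves, over their 66 pairs. They include both transferases of the outer membrane, Cpt1a and Cpt1b, the carboxylase Acacb, Acsl6, Slc27a4, the regulators Ppara, Ppard and Angptl4, Plin2, Ucp3, and the peroxisomal Ehhadh and Acaa1a. The cut of 19 partners places them there, and some still followed the set. Ppara correlated above 0.5 with 16 of the other genes and at 0.584 with the mean of the set, and Ucp3 at 0.502 with that mean. Angptl4 (0.043), Cpt1a (-0.018), Acsl6 (-0.038) and Plin2 (-0.109) did not follow it. Of the 12 genes that rose with running, 11 belong to the correlated set, which holds 26 of the 38 genes, and 1, Ehhadh, does not. Set and calls come from the same mice, and genes of the set vary together, so the 11 are not separate results. A smaller group joined Angptl4 with Ucp3 (r = 0.678) and Cpt1a (0.620), and Ucp3 with Mlycd (0.759). Ucp3 also followed Pdk4, the kinase that turns off pyruvate oxidation, at r = 0.934 over the 62 mice. In cohort 1 that value was 0.950 and in cohort 2 it was 0.927.

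**Figure D5:**
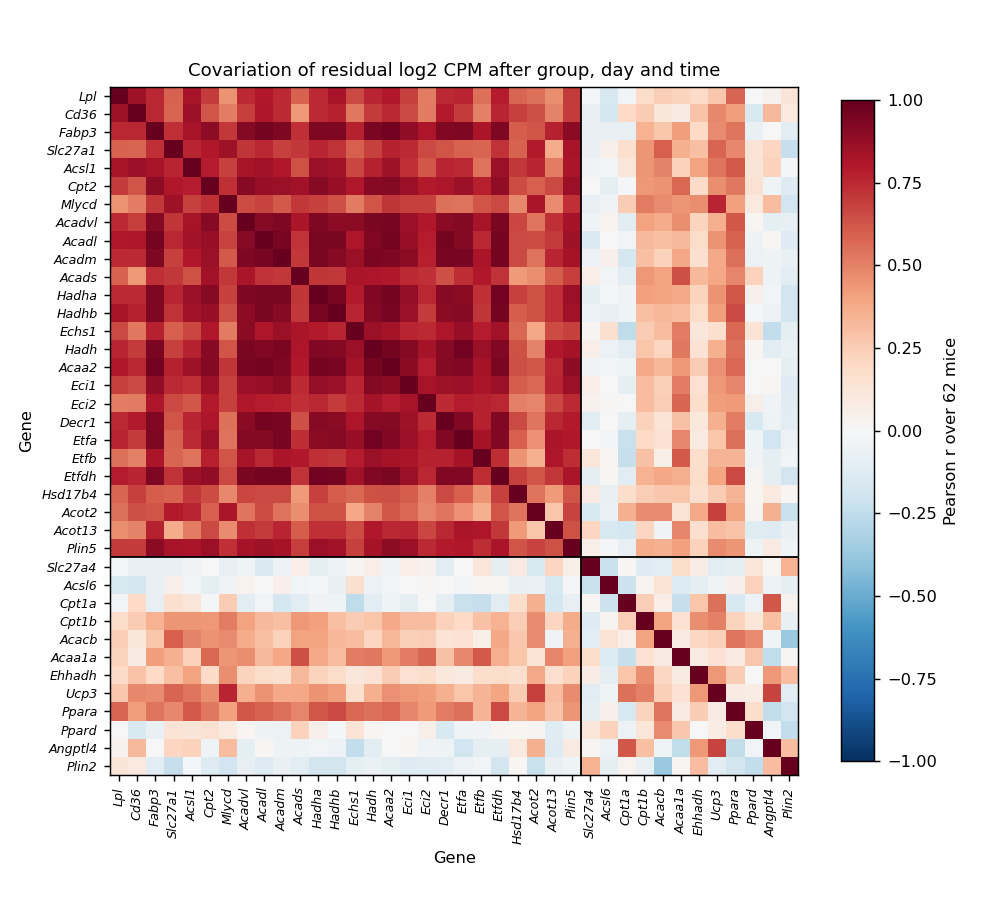
Pearson r between the 38 genes over 62 mice, from log2 CPM after group, day and time were removed (red positive, blue negative). Black lines part the 26 genes with r above 0.5 to at least 19 others from the other 12. The upper left square is red nearly throughout, with a median r of 0.76, and Angptl4, Ucp3 and Cpt1a form a small red group in the lower right.

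Fibre type markers moved with the same genes. The mean of the 26 genes correlated across mice with Myh1, the myosin of fast type IIx fibres, at r = 0.891 (0.862 in cohort 1 and 0.916 in cohort 2), with the mean of 12 slow fibre genes at 0.704 and with Myh4, the myosin of type IIb fibres, at -0.437. With Ppargc1a the value was 0.633 and with Esrra, which encodes an ERR receptor, 0.593. Markers of other cell types were also correlated with the mean of the 26 genes, endothelial markers positively and the others negatively. The value was 0.479 for the mean of the endothelial markers, -0.422 for fibroblast, -0.376 for macrophage and -0.338 for adipocyte markers. For the mean of the skeletal muscle markers it was 0.095. Myh1 spanned 1620 to 9043 CPM in running mice, median 4240.2 CPM, and 1150 to 4714 CPM in non-running mice, median 2891 CPM, with overlapping ranges and a log2 change of 0.67 ± 0.14 (SE; edgeR adjusted p = 0.000741). Of the 12 slow fibre genes, 2 rose with running and 0 fell, where 8.41% of all tested genes rose, and the median log2 change of the 12 was 0.38. Their sum spanned 90.4 to 342 CPM in running mice and 88.1 to 398 CPM in non-running mice, and Myh7, which defines slow fibres, spanned 0.177 to 58.0 CPM in running mice, median 0.944 CPM, and 0 to 5.90 CPM in non-running mice, median 0.940 CPM. Its log2 value was 1.17 ± 0.50 (SE; edgeR adjusted p = 0.106). The part of fibre type in the running change of the 38 genes was not tested.

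Markers of the vessel wall rose with running as well. Of 18 endothelial markers 17 rose and 0 fell (median log2 change 0.25), and their sum spanned 505 to 888 CPM in running mice, median 635 CPM, and 478 to 628 CPM in non-running mice, median 554 CPM. Cdh5, the cadherin of endothelial junctions, spanned 64.8 to 136 CPM in running mice and 61.3 to 83.5 CPM in non-running mice, with overlapping ranges and a log2 change of 0.35 ± 0.04 (SE; edgeR adjusted p = 3.91e-07). Adipocyte markers rose in 2 of 12, macrophage markers in 3 of 12 and fibroblast markers in 3 of 10, and 0 fell in each list, counts that stand beside the 8.41% of all tested genes that rose. The median log2 changes of these lists were 0.13, 0.19 and 0.14 for adipocytes, macrophages and fibroblasts. The sums were 496 to 1870.3 CPM in running mice and 752 to 1817 CPM in non-running mice for adipocytes, 175 to 428 CPM in running mice and 139 to 388 CPM in non-running mice for macrophages, and 2166 to 4517 CPM in running mice and 1525 to 4518 CPM in non-running mice for fibroblasts. Adipoq, the adiponectin of fat cells, spanned 4.70 to 74.5 CPM in running mice and 3.12 to 79.1 CPM in non-running mice. No gene of these lists was at 0 in every library. Lpl, Cd36 and Fabp3 are known from several of these cell types, whose part in the running change was not tested, and in bulk tissue more cells of a type and more RNA per cell cannot be told apart.

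Among 50 further genes of fatty acid metabolism, 49 were tested, and 9 rose and 2 fell with running, 22.4% of them against 14% of all tested genes, with a median log2 change of 0.09. Fabp5, a binding protein known from endothelium, rose most. It spanned 3.36 to 9.12 CPM in running mice, median 6.34 CPM, and 3.05 to 7.60 CPM in non-running mice, median 5.15 CPM, with overlapping ranges and a log2 change of 0.37 ± 0.07 (SE; edgeR adjusted p = 0.000246). Gpihbp1, which holds lipoprotein lipase on the capillary wall, rose by 0.29 ± 0.06 (adjusted p = 0.00123), a log2 change like that of Lpl itself. The genes that rose also included the triglyceride lipase Pnpla2 (0.21 ± 0.06), the coactivator Ppargc1a (0.20 ± 0.05), the binding protein Fabp4 (0.25 ± 0.08), which is also in the adipocyte list, the droplet protein Plin3 (0.17 ± 0.05) and the dehydrogenases Acad9 (0.11 ± 0.03) and Acad11 (0.10 ± 0.04). Rxra, which encodes the partner receptor of the PPARs, fell by 0.10 on the log2 scale (SE 0.02; edgeR adjusted p = 0.00411), and Prkag3, a subunit of the energy sensor AMPK, fell by 0.18 (SE 0.06; adjusted p = 0.0390). By edgeR, NR called 0 of the 49 and PT 0, with 6 and 2 of them at an unadjusted p below 0.05. Over all 14549 tested genes, 828 and 580 were at that p. Noon minus morning called 0 of the 49 in running mice (3 at an unadjusted p below 0.05) and 0 in non-running mice (1 at that p). Over the 17242 genes of that test, 701 and 835 were at that p. In running mice Pdk4 had a noon-minus-morning log2 value of 0.68 ± 0.35, the thioesterase Acot1 of 0.58 ± 0.31 and Ppargc1a of -0.12 ± 0.05, each with an edgeR adjusted p of 0.983.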

How the data were processed

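Poly-A RNA from the quadriceps of 62 mice was sequenced as read pairs. The authors deposited raw counts of reads per gene as whole numbers. Per the submitters' processing notes, reads were aligned with STAR 2.7.3a and counted with featureCounts 2.0.0 on build mm10. Whether the counting used strand, and on which annotation release, is not given in the sources used here. Genes that overlap on opposite strands, and near-identical copies such as Acot1 and Acot2, may therefore share reads. Symbols were matched through GENCODE M21 for 55394 of 55487 genes (99.8%). The exon length of a gene is a deposited column.

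CPM (with TMM-scaled library sizes) and RPKM were computed from the deposited counts. Genes were kept by edgeR's filterByExpr (minimum count 10, minimum total 15), which left 14549. Differences were tested with edgeR 4.0.16 (R 4.3.3), quasi-likelihood, robust, with terms for the 8 groups, the day and the time of termination (46 residual degrees of freedom). Each factor was averaged over the others, p-values were adjusted by Benjamini-Hochberg over all tested genes, and calls were made at an adjusted p below 0.05. Time was tested on counts summed over 16 sessions (1 day and 1 running state) with cohort as a term (17242 genes). Pathway genes and marker lists were chosen by name, with earlier results of these data known. Genes given in full were those called for running and, in steps with no call, the gene with the smallest p. Some genes of the wider list are counted but not reported here by name. On simulated counts for the running test, edgeR recovered 30% of genes changed 1.1-fold and 88% of genes changed 1.25-fold. The shallowest library, at 5642043 counts, limits low genes most. DESeq2 1.42.0, other scalings, filters, blocks and left-out days or libraries were tried as alternatives. Promoters are RefSeq's, build GRCm38.p6.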

Additional observations from a re-analysis of the deposited data

Results flagged for a closer look

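Of 304 combinations of a gene and a group, 19 (6.25%) had a highest or lowest mouse set apart from the rest of its group by Dixon's test, which chance gives in about 1 in 20. Of the 19, 8 lay in 1 library, replicate 2 of the running mice given NR only, terminated on day 1. In that mouse Cd36 was at 542 CPM (the other 6 mice reached at most 383), Fabp3 at 295 CPM (at most 188), Acadl at 449.5 CPM (at most 293), Acadm at 423 CPM (at most 313), Acads at 127 CPM (at most 95.0), Hadha at 568 CPM (at most 415), Acaa2 at 238 CPM (at most 165) and Decr1 at 215 CPM (at most 164). All 8 genes belong to the set that varied together between mice. Without this mouse 8 of the 38 genes were called for running, 7 higher and 1 lower, against 13 with it.

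Replicate 6 of the non-running mice given NR only was low for Acadvl (126 CPM, others from 173 CPM), Echs1 (76.9 CPM, others from 92.9 CPM) and Etfdh (110.4 CPM, others from 147 CPM). In the same group, replicate 8 was high for Lpl (607 CPM, others at most 450.2 CPM) and Cd36 (405 CPM, others at most 326 CPM), and replicate 2 was low for Plin2 (25.8 CPM, others from 31.2 CPM). Acacb stood apart at 639 CPM in replicate 1 of the running mice given NR only, the library with the fewest counts. In that library 8.56% of the counts (481 times the median library) fell on a list of ribosomal RNA genes and some others, Lars2 among them. The part of depth and of these reads in the Acacb value was not tested. Acacb was also set apart at 279 CPM, the low side, in replicate 3 of the running mice given neither. Plin2 reached 42.2 CPM in replicate 2 of the running mice given PT only. Ppara was at 2.62 CPM in replicate 4 of the non-running mice given PT only, and Plin5 at 9.81 CPM in replicate 4 of the non-running mice given neither.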

How the results depend on the processing

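The running result had a main count of 13 called genes and was refitted under 20 alternatives. The median log2 change of the 38 genes stayed between 0.10 and 0.14 in all 20, and no gene given in full changed sign. Among all 38 genes, 31 to 35 were fitted above 0 in the alternatives, against 34 in the main fit, so some of the others did change sign. The count was 12 with RLE scaling, 13 with DESeq2, 12 with the 8 groups alone, 13 with the purification pool and 14 with counts summed per session. It was 4 with no filter on low counts, where more genes enter the adjustment, 1 in cohort 1 alone and 0 in cohort 2 alone, both with fewer mice. Leaving out 1 day at a time gave 2 (without day 1) to 15 (without day 2), and without days 4 and 5 it gave 5 and 6. Alternatives added after seeing the data gave 8 without replicate 2 of the running mice given NR only and 12 without the library richest in reads of the list of ribosomal RNA and some other genes. Without the 7 libraries above 5 times the median share of such reads the count was 10. Acads kept its call in 19 of the 20, Hadh in 18, Acot13 in 17 and Acaa2 in 7. Running within the arms had 0 calls, and 1 in cohort 1 alone and 1 without day 6. Noon minus morning had 0 calls, and with no filter 4 in running and 1 in non-running mice. The cause of these shifts was not tested, and calls over all genes in most of these fits are not given here. NR, PT, NR or PT within the other arms, and the interactions had 0 calls in each of their 19 alternatives. Replicate numbers recur in all groups, but same-numbered mice did not deviate together (median r 0.01 over 211 pairs, -0.00499 over the other 1470). A fit with the replicate number as a block in place of the day called 13 genes, all higher, and lost Acsl6. Depth limits the low genes most, Angptl4 and Ppara among them.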
